A study of Mus musculus with 11 samples.

Results

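The genes described here make cholesterol and fatty acids in the liver, or control that synthesis. They are 33 genes chosen by name, of which 32 had a probe set that the array annotation gives to a single gene symbol, out of 19938 genes measured in this way. Where a gene had several such probe sets, the one with the highest mean over the arrays was taken. Acat2 had none, so its level was not analysed here. They fall into a sterol arm of 21 measured genes and a lipogenic arm of 11.

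The study ran whole liver RNA of male C57/BL6 mice on Affymetrix mouse arrays, 1 sample per array. The mice were 8 to 9 weeks old and ate chow. There were 3 samples with Nemo deleted in hepatocytes from a loxP-flanked allele (NemoΔhepa, here Nemo KO). A further 2 samples carried that deletion together with constitutive loss of TRAIL (TRAIL-/-, here TRAIL dKO), and 3 carried it with constitutive loss of TNFR1 (TNFR1-/-, here TNFR1 dKO). The reference was 3 wild-type samples (WT). All 8 Nemo-deficient samples thus share the hepatocyte deletion, while the added TRAIL or TNFR1 loss is constitutive by the labels. The promoter that drives the recombinase is not named in the labels, nor do they say whether replicates came from separate litters or days. The p-values below therefore measure only the spread between these samples.

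Hepatocytes switch on cholesterol synthesis when sterols in the membrane of the endoplasmic reticulum fall. Scap then escorts the membrane-bound transcription factor SREBP2, the product of Srebf2, out of that compartment for cleavage, and Insig proteins hold the complex back when sterols are plentiful. SREBP1c, a product of Srebf1, drives fatty acid synthesis and follows insulin and liver X receptors (LXR), nuclear receptors that sense oxysterols. Both factors act on promoters together with NF-Y, which binds CCAAT boxes.

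Values are log2 levels, so a difference of 1 is a doubling and levels of different genes cannot be set against each other. In whole liver, fewer cells of a type and less RNA per cell cannot be told apart. The deletion was visible in Ikbkg, the gene of Nemo, which read 8.34, 8.56 and 8.36 in Nemo KO, 8.28 and 8.22 in TRAIL dKO and 8.20, 8.31 and 8.12 in TNFR1 dKO, against 8.65, 8.73 and 8.60 in WT. All 8 Nemo-deficient arrays lay below all 3 WT arrays, although the difference of Nemo KO from WT did not pass (-0.24 ± 0.08, adjusted p = 0.106, limma). The differences of TRAIL dKO (-0.41 ± 0.09, limma adjusted p = 0.0239) and TNFR1 dKO (-0.45 ± 0.08, limma adjusted p = 0.00818) from WT passed. Tnfsf10, which encodes TRAIL, read 6.23 and 6.11 in TRAIL dKO, below the other 9 arrays. The nearest of these was Nemo KO replicate 3 at 6.26. The difference of TRAIL dKO did not pass against WT (-0.65 ± 0.19, adjusted p = 0.0749, limma) or against Nemo KO (-0.37 ± 0.19). Tnfrsf1a, which encodes TNFR1, read 9.95 to 10.19 in TNFR1 dKO, against 10.19 to 10.41 in Nemo KO and 9.93 to 10.09 in WT. The array thus did not show a loss of Tnfrsf1a against WT (0.07 ± 0.09, adjusted p = 0.67), and whether its probes lie in the deleted stretch is not given in the labels. Hepatocyte markers read alike (mean of 7 genes 13.36 to 13.37 in Nemo KO, 13.40 on both TRAIL dKO arrays, 13.35 to 13.39 in TNFR1 dKO and 13.37 to 13.41 in WT). These levels lie near the top of the array, where the highest mean of a probe set was 14.33. Alike readings there need not bound a change in hepatocyte content, and saturation was not tested. Pancreatic acinar markers stood at 11.58 on WT replicate 3 and at 5.63 to 5.83 in the Nemo-deficient groups.

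Promoter sequence around the start sites was taken from RefSeq (GRCm38.p6) for 18 sterol and 10 lipogenic genes, with 250 bases before and 50 after each start. The 18 include Acat2, which had no usable probe set and whose window held neither motif searched. The consensus TCACNCCAC of the sterol regulatory element was searched on both strands, with no mismatch allowed. It occurred in 1 of 24 sterol arm windows, in 0 of 13 lipogenic windows, and in 1.24% of all 32851 windows. CCAAT, also on both strands, occurred in 16 of 24 sterol windows and 9 of 13 lipogenic windows, and in 37.4% of all windows. By gene, CCAAT was present in 16 of 18 sterol and 8 of 10 lipogenic genes, against 41.1% of all genes, and genes with several windows have more chances to hold it.

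The bases upstream of the start are shown for the gene with the match to TCACNCCAC and for 4 genes with large differences described below. Each runs 5′ to 3′ on the strand of its gene, and capitals mark TCACNCCAC, CCAAT and its reverse complement ATTGG. The regions are chr13:119690101-119690350 (plus strand) for Hmgcs1, chr8:122443423-122443672 (minus strand) for Mvd, chr5:28071162-28071411 (plus strand) for Insig1, chr7:97417551-97417800 (minus strand) for Thrsp and chr3:129532136-129532385 (plus strand) for Elovl6.
Hmgcs1: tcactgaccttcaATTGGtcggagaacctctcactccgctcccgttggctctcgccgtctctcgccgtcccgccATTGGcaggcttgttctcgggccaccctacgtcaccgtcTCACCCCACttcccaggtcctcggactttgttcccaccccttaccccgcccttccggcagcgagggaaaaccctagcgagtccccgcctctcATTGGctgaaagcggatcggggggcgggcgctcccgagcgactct
Mvd: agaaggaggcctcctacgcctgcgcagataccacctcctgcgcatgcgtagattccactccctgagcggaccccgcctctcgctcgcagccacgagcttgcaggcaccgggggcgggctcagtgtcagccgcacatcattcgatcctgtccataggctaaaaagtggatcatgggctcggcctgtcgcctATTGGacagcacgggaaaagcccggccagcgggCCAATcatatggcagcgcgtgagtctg
Insig1: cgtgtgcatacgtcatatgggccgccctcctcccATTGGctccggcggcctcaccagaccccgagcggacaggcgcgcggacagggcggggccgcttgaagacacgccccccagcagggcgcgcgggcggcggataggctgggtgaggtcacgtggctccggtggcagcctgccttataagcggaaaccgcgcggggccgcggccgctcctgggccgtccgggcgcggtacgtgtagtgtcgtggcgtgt
Thrsp: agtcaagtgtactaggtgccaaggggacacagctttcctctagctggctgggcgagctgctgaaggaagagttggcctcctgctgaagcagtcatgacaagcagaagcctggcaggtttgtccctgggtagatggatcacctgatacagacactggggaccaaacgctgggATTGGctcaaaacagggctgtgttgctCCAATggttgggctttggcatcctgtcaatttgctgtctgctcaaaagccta
Elovl6: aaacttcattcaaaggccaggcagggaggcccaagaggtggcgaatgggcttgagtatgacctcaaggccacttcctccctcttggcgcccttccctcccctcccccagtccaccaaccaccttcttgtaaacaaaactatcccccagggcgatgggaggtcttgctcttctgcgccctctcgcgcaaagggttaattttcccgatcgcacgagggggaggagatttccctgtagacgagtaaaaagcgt
The sterol element of Hmgcs1 reads TCACCCCAC and begins 137 bases before the start, with CCAAT boxes on the opposite strand at 237, 176 and 45 bases before it. Mvd and Thrsp each hold 2 CCAAT boxes upstream, Insig1 holds 1, and the stretch shown for Elovl6 holds neither motif. A match of letters is not a site of binding, and these windows miss elements that lie farther away. A search for exact matches also misses sterol elements of other sequence, so a window without a match may still hold one.

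No gene of either arm passed an adjusted p of 0.05 in any of the 6 comparisons among the 4 genotypes (limma over all 35556 probe sets). In Nemo KO against WT, 0 of 32 genes were called higher and 0 lower, where 6.08% of all probe sets were called higher and 3.21% lower. The same counts were 0 and 0 in TRAIL dKO against WT (all probe sets 4.91% and 2.64%) and 0 and 0 in TNFR1 dKO against WT (5.83% and 3.35%). At an unadjusted p below 0.05, 2 genes lay higher and 4 lower in Nemo KO, 2 and 8 in TRAIL dKO, and 3 and 7 in TNFR1 dKO. That is 18.8%, 31.3% and 31.3% of the 32 genes, beside 24.8%, 21.2% and 23.0% of all probe sets. Other settings called between 0 and 4, 0 and 6, and 0 and 3 genes in these comparisons.

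The absence of calls went with a wide spread between samples of one genotype. The median standard deviation within groups was 0.26 in both arms, against 0.13 over all probe sets and 0.12 over the 17778 probe sets above the median level. The median standard error of a difference between groups of 3 was accordingly 0.19 for the 32 genes and 0.10 for all probe sets. The widest spread was that of Thrsp (0.48), then Lss (0.39) and Acly (0.37), and the narrowest that of Scd1 (0.07).

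**Figure D1:**
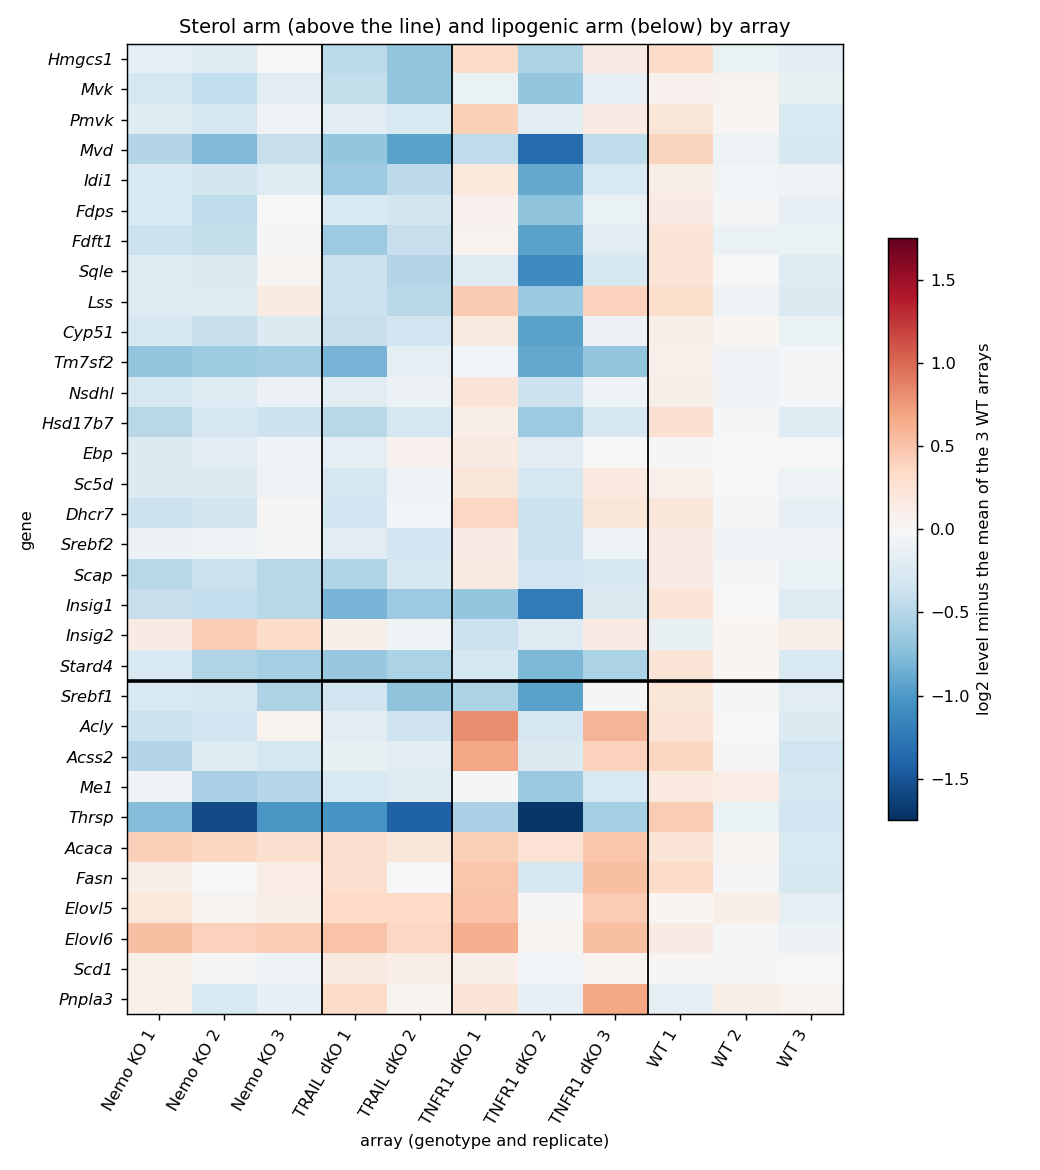
Heat map of the 32 genes (rows) on the 11 arrays (columns, grouped by genotype), coloured by log2 level minus the mean of the 3 WT arrays. Most of the sterol arm is blue in Nemo KO and TRAIL dKO, and TNFR1 dKO replicate 2 is the bluest column.

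In the sterol arm, 20 of 21 genes had a lower mean in Nemo KO than in WT, 20 in TRAIL dKO and 17 in TNFR1 dKO, none of them past the test. The median log2 difference was -0.23, -0.40 and -0.24 in the same order, beside -0.05, -0.05 and -0.04 over all probe sets. Of all probe sets 61.8%, 60.3% and 59.4% lay lower, and of those above the median level 52.8%, 53.9% and 53.4%. These 3 comparisons share the WT arrays, and genes of one arm on one array share the sample, so the counts are not of independent genes. Without TNFR1 dKO replicate 2 the median of TNFR1 dKO was -0.04, and without replicate 1 it was -0.40. Without WT replicate 1 the median of Nemo KO was -0.16.

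No gene of the lipogenic arm passed the test, and its role groups are given as counts only, with no test between them. Its transcription factor and the enzymes that supply carbon and reducing power (Srebf1, Acly, Acss2, Me1 and Thrsp) lay lower than WT in 5 of 5 genes in Nemo KO, 5 of 5 in TRAIL dKO and 3 of 5 in TNFR1 dKO. The genes that build, lengthen and desaturate the chain or remodel its storage lay higher in 5, 6 and 6 of 6, beside the 61.8%, 60.3% and 59.4% of all probe sets that lay lower. Over the whole arm the median difference was -0.11, 0.14 and 0.26. Without WT replicate 3 the median was 0.00 in TRAIL dKO and 0.11 in TNFR1 dKO. In Nemo KO it was -0.03 without replicate 2 and -0.06 without WT replicate 2. In TRAIL dKO it was 0.00 without replicate 1, and in TNFR1 dKO 0.45 without replicate 2, 0.11 without replicate 1 and 0.09 without replicate 3.

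**Figure D2:**
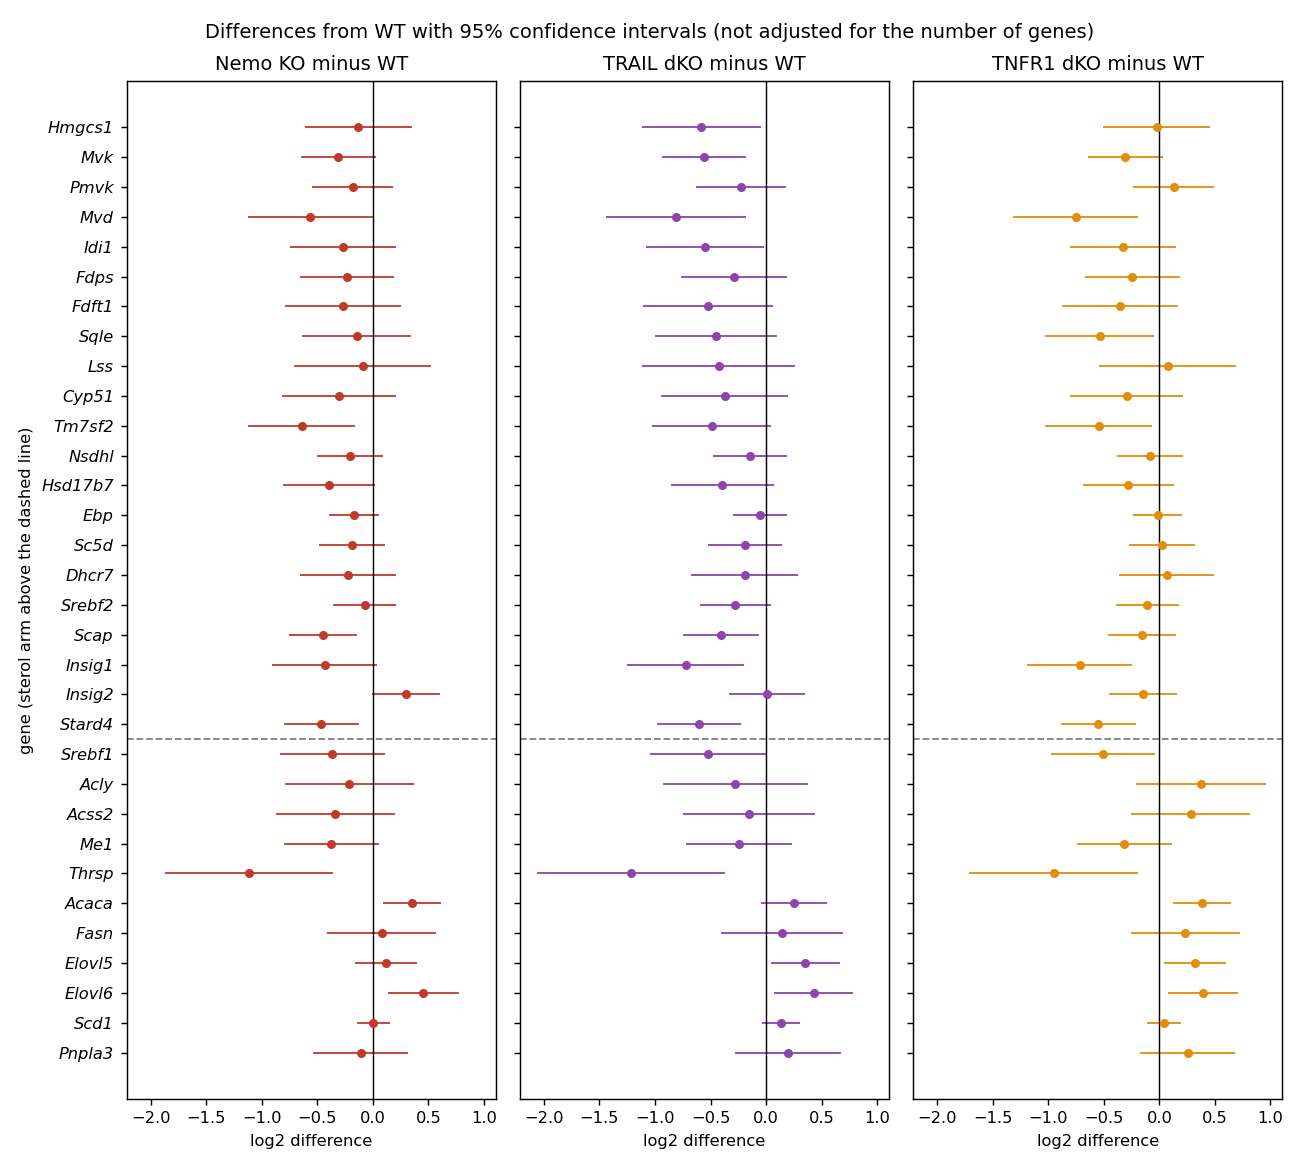
Log2 difference from WT of each gene (points) with its 95% confidence interval (bars, not adjusted for the number of genes), in Nemo KO, TRAIL dKO and TNFR1 dKO. Most sterol arm points lie left of 0 and most intervals cross it, while Elovl6 and Acaca lie right of 0 in all 3 panels.

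Srebf2, the transcription factor gene, read 9.66, 9.67 and 9.74 in Nemo KO, 9.56 and 9.42 in TRAIL dKO and 9.91, 9.38 and 9.68 in TNFR1 dKO, against 9.91, 9.70 and 9.67 in WT. Only the TRAIL dKO arrays both lay below the WT range. The differences were -0.07 ± 0.13 in Nemo KO (SE, limma adjusted p = 0.757), -0.28 ± 0.14 in TRAIL dKO (0.306) and -0.11 ± 0.13 in TNFR1 dKO (0.665). The Nemo KO difference lay between -0.35 and 0.21 (95% interval). It was 0.00 without WT replicate 1, and the TNFR1 dKO difference was 0.03 without its replicate 2.

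Scap, the sterol-sensing escort of SREBP2, read 10.47, 10.58 and 10.47 in Nemo KO, 10.43 and 10.68 in TRAIL dKO and 11.12, 10.62 and 10.68 in TNFR1 dKO, against 11.11, 10.93 and 10.84 in WT. Nemo KO and TRAIL dKO lay below every WT array, whereas TNFR1 dKO replicate 1 read as high as the top WT array. The difference was -0.45 ± 0.14 in Nemo KO (limma adjusted p = 0.0713), -0.40 ± 0.15 in TRAIL dKO (0.158) and -0.15 ± 0.14 in TNFR1 dKO (0.554). Without TNFR1 dKO replicate 1 the Nemo KO difference, itself still -0.45, passed the test. That array is in neither group compared, so only the estimate of spread shared by all groups changed.

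Insig1, a retention protein that is also a textbook target of SREBP2, read 11.73, 11.70 and 11.65 in Nemo KO, 11.31 and 11.50 in TRAIL dKO and 11.45, 10.91 and 11.88 in TNFR1 dKO, against 12.36, 12.12 and 11.90 in WT. Every Nemo-deficient array lay below the lowest WT array, by 0.02 in the nearest case. The difference was -0.43 ± 0.21 in Nemo KO (limma adjusted p = 0.24), -0.73 ± 0.24 in TRAIL dKO (0.105) and -0.71 ± 0.21 in TNFR1 dKO (0.0679). It passed in TRAIL dKO without TNFR1 dKO replicate 2 or 3, where only the shared spread changed and not the difference. In TNFR1 dKO it passed without its replicate 3.

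Insig2 is the second retention protein, and its liver transcript is known to be lowered by insulin. It was the only sterol gene with a higher mean than WT in Nemo KO and in TRAIL dKO, but its mean was lower in TNFR1 dKO. It read 12.10, 12.39 and 12.27 in Nemo KO, 12.05 and 11.88 in TRAIL dKO and 11.58, 11.73 and 12.10 in TNFR1 dKO, against 11.82, 11.99 and 12.05 in WT. The 3 Nemo KO arrays lay above every WT array, and the TNFR1 dKO arrays spread on both sides. The difference was 0.30 ± 0.14 in Nemo KO (limma adjusted p = 0.211), 0.01 ± 0.15 in TRAIL dKO (0.984) and -0.15 ± 0.14 in TNFR1 dKO (0.572). The sign in TRAIL dKO turned under median centring, without WT replicate 1 and without TRAIL dKO replicate 1.

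Stard4 encodes a carrier that moves cholesterol between membranes. It read 9.10, 8.84 and 8.79 in Nemo KO, 8.71 and 8.82 in TRAIL dKO and 9.06, 8.59 and 8.82 in TNFR1 dKO, against 9.60, 9.40 and 9.11 in WT. All 8 Nemo-deficient arrays lay below the 3 WT arrays, by 0.01 in the nearest case. The difference was -0.46 ± 0.15 in Nemo KO (limma adjusted p = 0.0928), -0.60 ± 0.17 in TRAIL dKO (0.0637) and -0.55 ± 0.15 in TNFR1 dKO (0.0532). Of 22 other settings, 2, 7 and 10 called it in these comparisons, among them the fit without WT replicate 3 each time.

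In the mevalonate pathway 6 of 6 measured genes lay lower in Nemo KO, 6 in TRAIL dKO and 5 in TNFR1 dKO, with medians of -0.25, -0.55 and -0.28. Mvd, which decarboxylates mevalonate diphosphate to the isoprenoid unit, differed most. It read 8.58, 8.32 and 8.69 in Nemo KO, 8.41 and 8.15 in TRAIL dKO and 8.64, 7.75 and 8.64 in TNFR1 dKO, against 9.48, 9.00 and 8.81 in WT. The Nemo-deficient arrays all lay below WT. The difference was -0.56 ± 0.25 in Nemo KO (limma adjusted p = 0.202), -0.81 ± 0.28 in TRAIL dKO (0.126) and -0.75 ± 0.25 in TNFR1 dKO (0.103).

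Hmgcs1, which makes the substrate of the rate-limiting step of the pathway, averaged 11.49 ± 0.11 in Nemo KO (SD, n = 3), 11.04 ± 0.15 in TRAIL dKO (n = 2) and 11.60 ± 0.45 in TNFR1 dKO (n = 3), against 11.62 ± 0.28 in WT (n = 3). Both TRAIL dKO arrays lay below every WT array, with a difference of -0.58 ± 0.24 (limma adjusted p = 0.197). Mvk, the first kinase of mevalonate, differed by -0.31 ± 0.15 in Nemo KO, -0.56 ± 0.17 in TRAIL dKO (adjusted p = 0.0799) and -0.31 ± 0.15 in TNFR1 dKO. Idi1, the isomerase of the isoprenoid unit, differed by -0.27, -0.55 and -0.32, and Fdps, which joins such units into farnesyl diphosphate, by -0.23, -0.29 and -0.24. In TNFR1 dKO both rested on replicate 2, without which they were -0.04 for Idi1 and -0.02 for Fdps, against -0.58 and -0.41 without replicate 1. The Hmgcs1 difference in Nemo KO was -0.13, and 0.03 without WT replicate 1. Pmvk, the second kinase, was the exception, with -0.18 and -0.23 but 0.13 ± 0.16 in TNFR1 dKO. Of these genes only Mvd lay below WT on every Nemo-deficient array.

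From squalene to cholesterol, 10 of 10 genes lay lower in Nemo KO, 10 in TRAIL dKO and 7 in TNFR1 dKO, with medians of -0.21, -0.38 and -0.18. Tm7sf2, a sterol reductase, differed most in Nemo KO and TNFR1 dKO, and Fdft1, squalene synthase, in TRAIL dKO. Tm7sf2 read 10.39, 10.46 and 10.47 in Nemo KO, 10.26 and 10.91 in TRAIL dKO and 11.03, 10.18 and 10.39 in TNFR1 dKO, against 11.17, 11.02 and 11.05 in WT. Only TNFR1 dKO replicate 1 reached the WT range. The difference was -0.64 ± 0.21 in Nemo KO (limma adjusted p = 0.1), -0.49 ± 0.24 in TRAIL dKO (0.282) and -0.54 ± 0.21 in TNFR1 dKO (0.162). Without TNFR1 dKO replicate 1 it passed in Nemo KO (-0.64, unchanged, with only the shared spread differing) and in TNFR1 dKO (-0.79).

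Fdft1 read 11.54, 11.49 and 11.89 in Nemo KO, 11.27 and 11.50 in TRAIL dKO and 11.97, 10.98 and 11.73 in TNFR1 dKO, against 12.14, 11.80 and 11.79 in WT. TRAIL dKO lay below WT and the other genotypes overlapped it. The differences were -0.27 ± 0.23 in Nemo KO, -0.52 ± 0.26 in TRAIL dKO (limma adjusted p = 0.291) and -0.35 ± 0.23 in TNFR1 dKO. Sqle, squalene epoxidase, differed by -0.15, -0.45 and -0.54, and Cyp51, a lanosterol demethylase, by -0.31, -0.37 and -0.29. Without 1 array the TNFR1 dKO difference of Cyp51 ran from -0.52 to 0.03, the last without its replicate 2, and that of Sqle from -0.69 to -0.25. Without WT replicate 1 the Sqle difference in Nemo KO was -0.03. Lss, which closes the sterol ring system, differed by -0.09 and -0.43 in Nemo KO and TRAIL dKO and by 0.08 ± 0.27 in TNFR1 dKO.

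Hsd17b7 and Nsdhl, which act in removing methyl groups from the sterol ring, differed by -0.39 and -0.20 in Nemo KO, -0.39 and -0.15 in TRAIL dKO, and -0.28 and -0.08 in TNFR1 dKO. Ebp, a sterol isomerase with little spread in WT (11.19 ± 0.01), averaged 11.02 ± 0.09 in Nemo KO, 11.14 ± 0.17 in TRAIL dKO and 11.18 ± 0.17 in TNFR1 dKO (SD). Sc5d, a desaturase, and Dhcr7, a terminal reductase, differed by -0.19 and -0.22 in Nemo KO, -0.19 and -0.19 in TRAIL dKO, and 0.03 and 0.06 in TNFR1 dKO. For Ebp the 95% interval in Nemo KO ran from -0.39 to 0.05.

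**Figure D3:**
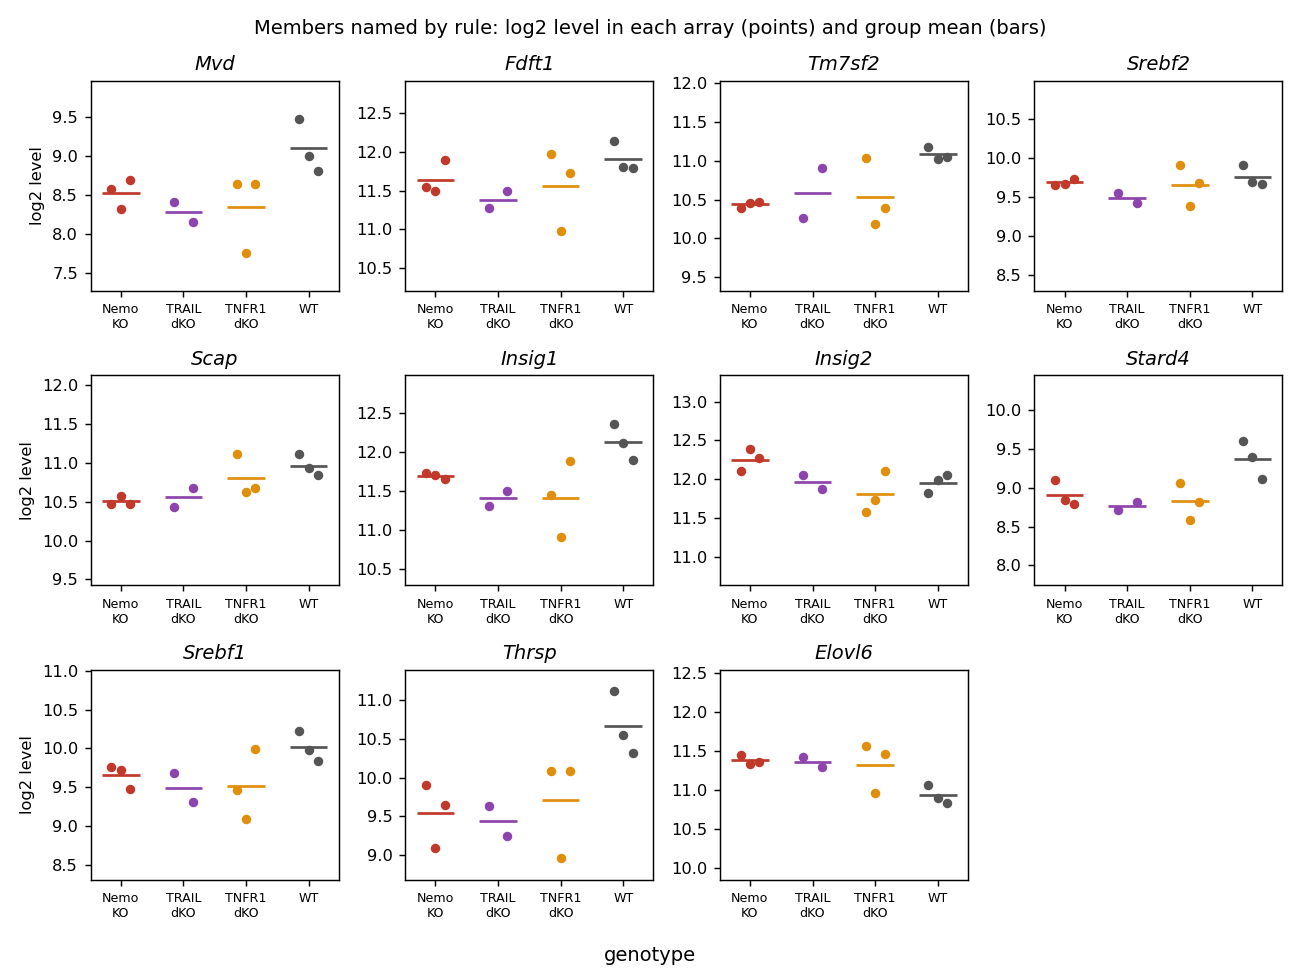
Log2 level of 11 genes on each array (points) with the group mean (bars), for Nemo KO, TRAIL dKO, TNFR1 dKO and WT, in panels of equal height. Mvd, Insig1, Stard4 and Thrsp have every Nemo-deficient point below the WT points, and Elovl6 has all but 1 above them.

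Srebf1, whose liver product is mainly SREBP1c, read 9.76, 9.72 and 9.48 in Nemo KO, 9.68 and 9.31 in TRAIL dKO and 9.46, 9.09 and 9.99 in TNFR1 dKO, against 10.23, 9.98 and 9.84 in WT. TNFR1 dKO replicate 3 alone among the Nemo-deficient arrays lay inside the WT range. The difference was -0.36 ± 0.21 in Nemo KO (limma adjusted p = 0.314), -0.52 ± 0.23 in TRAIL dKO (0.239) and -0.50 ± 0.21 in TNFR1 dKO (0.184). Without that array the TNFR1 dKO difference was -0.74 and passed. The SREBP1a and SREBP1c transcripts come from the same gene and were not told apart here.

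Thrsp, which promotes lipogenesis in liver and answers to thyroid hormone and carbohydrate, had the widest differences of both arms. It read 9.90, 9.09 and 9.64 in Nemo KO, 9.63 and 9.25 in TRAIL dKO and 10.09, 8.96 and 10.08 in TNFR1 dKO, against 11.11, 10.55 and 10.32 in WT. Every Nemo-deficient array lay below every WT array. The difference was -1.12 ± 0.34 in Nemo KO (limma adjusted p = 0.0723), -1.22 ± 0.38 in TRAIL dKO (0.0905) and -0.95 ± 0.34 in TNFR1 dKO (0.123). Without TNFR1 dKO replicate 2, whose 8.96 was the lowest of the 11 arrays, the differences in Nemo KO and TRAIL dKO passed. These differences were themselves unchanged, and only the shared spread differed.

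The enzymes that supply carbon stood highest in TNFR1 dKO, within a wide spread and with none called. Acly, which cleaves citrate to acetyl-CoA, averaged 10.46 ± 0.23 in Nemo KO, 10.39 ± 0.11 in TRAIL dKO and 11.04 ± 0.59 in TNFR1 dKO, against 10.67 ± 0.23 in WT (SD). Acss2, which activates acetate, averaged 11.19 ± 0.15, 11.37 ± 0.05 and 11.81 ± 0.48 in the same Nemo-deficient order, against 11.53 ± 0.36 in WT. The TNFR1 dKO means of both genes rest on replicates 1 and 3, with 11.48 and 11.27 for Acly and 12.21 and 11.93 for Acss2, while replicate 2 read 10.37 and 11.28. Me1, the malic enzyme that yields NADPH, differed from WT by -0.38, -0.24 and -0.32.

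Elovl6, which elongates palmitate to stearate, read 11.45, 11.34 and 11.36 in Nemo KO, 11.43 and 11.29 in TRAIL dKO and 11.56, 10.96 and 11.46 in TNFR1 dKO, against 11.07, 10.90 and 10.83 in WT. All Nemo-deficient arrays but TNFR1 dKO replicate 2 lay above WT. The difference was 0.45 ± 0.14 in Nemo KO (limma adjusted p = 0.0809), 0.43 ± 0.16 in TRAIL dKO (0.153) and 0.39 ± 0.14 in TNFR1 dKO (0.129). It passed in all 3 comparisons without that array, at 0.45, 0.43 and 0.58. In Nemo KO and TRAIL dKO the difference was unchanged, and only the spread shared by all groups differed.

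Acaca, the carboxylase that commits acetyl-CoA to fatty acids, averaged 10.39 ± 0.07 in Nemo KO, 10.29 ± 0.07 in TRAIL dKO and 10.43 ± 0.12 in TNFR1 dKO, against 10.04 ± 0.24 in WT (SD). Its difference was 0.35 ± 0.12 in Nemo KO (limma adjusted p = 0.101), 0.25 ± 0.13 in TRAIL dKO (0.32) and 0.38 ± 0.12 in TNFR1 dKO (0.0784). Without WT replicate 1 it was 0.46 and 0.49 in Nemo KO and TNFR1 dKO and passed in both, and without WT replicate 3 it was 0.22, 0.12 and 0.25. The second probe set of Acaca, which was dimmer, differed by 0.45, 0.23 and 0.38. Both probe sets thus pointed the same way in each genotype, and so did those of Idi1, Fdft1 and Me1.

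Fasn, fatty acid synthase, averaged 12.03 ± 0.07 in Nemo KO, 12.10 ± 0.20 in TRAIL dKO and 12.19 ± 0.46 in TNFR1 dKO, against 11.95 ± 0.30 in WT (SD). Scd1, the main hepatic desaturase of saturated acids, differed from WT by 0.01 ± 0.07 in Nemo KO, with a 95% interval from -0.15 to 0.16. On single arrays Scd1 lay between 13.37 and 13.62, and its mean was above that of 99.9% of probe sets, so its narrow interval need not bound the change of the transcript, and saturation was not tested. For Fasn the same interval ran from -0.41 to 0.57. Elovl5, which elongates polyunsaturated acids, differed by 0.11 in Nemo KO, 0.35 ± 0.14 in TRAIL dKO (limma adjusted p = 0.177) and 0.32 ± 0.12 in TNFR1 dKO (0.155). Pnpla3, a lipid droplet protein induced by SREBP1c, differed by -0.11, 0.19 and 0.26.

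Within genotypes, whole arms stood high or low on single arrays. The mean of the 21 sterol genes, set to 0 in WT, was -0.30, -0.32 and -0.16 in Nemo KO, -0.42 and -0.36 in TRAIL dKO and 0.04, -0.65 and -0.12 in TNFR1 dKO, against 0.17, -0.03 and -0.14 in WT. TNFR1 dKO replicates 1 and 3 thus lay inside the WT range, and replicate 2 below all other arrays. That array read lowest of its genotype in 20 of 21 sterol genes, lowest of all 11 arrays in 14, and lowest of its genotype in 11 of 11 lipogenic genes. Replicate 1 read highest of that genotype in 18 of 21 sterol genes. WT replicate 1 likewise read highest of WT in 20 of 21 sterol and 9 of 11 lipogenic genes. WT replicate 3 read lowest of WT in 18 of 21 and 9 of 11, and it is also the array with acinar markers at 11.58, against 6.04 and 5.88 on the other WT arrays, whose part was not tested.

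The lipogenic mean was -0.05, -0.22 and -0.14 in Nemo KO, 0.00 and -0.16 in TRAIL dKO and 0.24, -0.37 and 0.26 in TNFR1 dKO, against 0.18, 0.01 and -0.20 in WT. Every genotype overlapped WT in this mean, and TNFR1 dKO held both its highest and its lowest values. The standard deviation of the sterol mean was 0.09 in Nemo KO, 0.04 in TRAIL dKO (n = 2) and 0.36 in TNFR1 dKO, against 0.16 in WT.

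**Figure D4:**
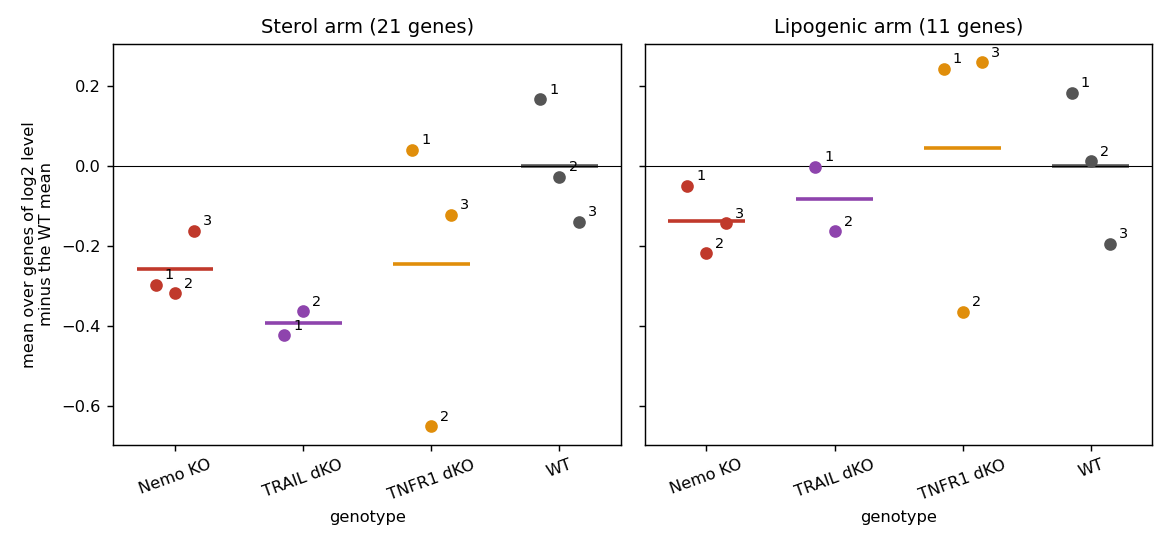
Mean log2 level of the 21 sterol and the 11 lipogenic genes on each array, minus the WT mean (points, numbered by replicate), with the group mean (bars). TNFR1 dKO replicate 2 is the lowest point of both panels, at -0.65 and -0.37.

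Feeding state and time of day at sampling, which are known to move both arms in liver, are not given in the labels. The mean of 9 fasting and gluconeogenesis genes lay at 9.96 to 10.08 in Nemo KO, 10.03 to 10.06 in TRAIL dKO and 10.01 to 10.21 in TNFR1 dKO, against 9.36 to 9.93 in WT. The lowest WT value was that of replicate 1, the array with the highest sterol mean. By gene, the fasting list was mixed in Nemo KO against WT. Its median difference was 0.07, with 6 genes higher, 3 lower and 1 called (Pdk4, described below). Dbp, a clock output gene of strong daily rhythm named after its values were seen, read 7.71, 7.71 and 7.59 in Nemo KO, 6.79 and 8.86 in TRAIL dKO and 9.03, 9.40 and 7.12 in TNFR1 dKO, against 8.93, 7.59 and 7.49 in WT. The mean of all 11 measured clock genes was 8.23 to 8.37 in Nemo KO, 7.95 and 8.52 in TRAIL dKO and 8.58, 8.65 and 8.04 in TNFR1 dKO, against 8.69, 8.47 and 8.32 in WT. The part of feeding and sampling time in these results was not tested.

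The livers also differed in the RNA of cell type markers, which does not tell cell number from RNA per cell. Macrophage markers were called higher in 7 of 7 genes in each Nemo-deficient genotype, with a list mean of 9.82 to 10.05 in Nemo KO, 9.86 to 10.03 in TRAIL dKO and 9.64 to 10.11 in TNFR1 dKO, against 8.37 to 8.44 in WT. Stellate cell markers were called higher in 7, 6 and 7 of 7, with means of 9.88 to 10.12, 9.75 to 9.89 and 9.69 to 10.13, against 8.62 to 8.88 in WT. Proliferation markers lay at 8.22 to 8.42 in Nemo KO, 8.28 to 8.41 in TRAIL dKO and 7.95 to 8.91 in TNFR1 dKO, against 5.80 to 6.46 in WT. Their part in the sterol and lipogenic differences was not tested. Adipocyte markers, a possible source of lipogenic transcripts, were called in 0 of 5 genes (limma), with means of 4.90 to 5.08, 4.99 to 5.15 and 5.05 to 5.33, against 5.04 to 5.44 in WT. At an unadjusted p below 0.05, 2 of these 5 genes differed in Nemo KO, 1 in TRAIL dKO and 0 in TNFR1 dKO.

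Between the Nemo-deficient genotypes, no gene of either arm was called by limma. In TRAIL dKO against Nemo KO, 0 of 32 genes were called, as were 0.00562% of all probe sets, and 0 passed an unadjusted p of 0.05 (4.04% of all probe sets did). In TNFR1 dKO against Nemo KO, 0 were called beside 0.0337% of all probe sets, and 2 passed unadjusted (6.86% of all probe sets). In TNFR1 dKO against TRAIL dKO, 0 were called beside 0.0478%, and 1 passed unadjusted (5.03% of all probe sets). Each unadjusted count is thus a smaller share of the 32 than of all probe sets. A count of 0 is close to these backgrounds and is not a result about these genes. No other setting called a gene in these 3 comparisons.

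Insig2, Acss2 and Hmgcs1 made up these counts. Insig2 differed by -0.45 ± 0.14 in TNFR1 dKO against Nemo KO (limma adjusted p = 0.537), and Acss2 by 0.62 ± 0.24 (0.685). Hmgcs1 differed by 0.56 ± 0.24 in TNFR1 dKO against TRAIL dKO (0.985). The median sterol difference was -0.14 in TRAIL dKO against Nemo KO, 0.01 in TNFR1 dKO against Nemo KO and 0.11 in TNFR1 dKO against TRAIL dKO, and the lipogenic median 0.07, 0.16 and 0.06. The sterol median of TNFR1 dKO against Nemo KO ran from -0.15 without TNFR1 dKO replicate 1 to 0.24 without its replicate 2. Against TRAIL dKO the same 2 fits gave -0.03 and 0.35. The lipogenic median ran from 0.02 to 0.36 in TNFR1 dKO against Nemo KO and from -0.09 to 0.23 in TNFR1 dKO against TRAIL dKO, lowest without TNFR1 dKO replicate 1 and replicate 3 in turn and highest without replicate 2. The array numbers in the labels follow genotype. What these numbers mark is not stated, and whatever they mark cannot be told apart from genotype.

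Other genes of the same pathways gave a background to the 32. Of 6 further sterol genes 3 had a usable probe set (Msmo1, Ggps1 and Erg28), and all 3 lay lower in each Nemo-deficient genotype, with 0 called by limma. At an unadjusted p below 0.05 the count was 0 in Nemo KO, 1 in TRAIL dKO and 1 in TNFR1 dKO. Msmo1, a sterol methyl oxidase named after its values were seen, differed by -0.50 ± 0.23 in Nemo KO, -0.73 ± 0.26 in TRAIL dKO and -0.65 ± 0.23 in TNFR1 dKO. Of 18 further lipogenic genes 17 were measured. Of these, 3 were called higher and 2 lower in Nemo KO, 4 and 3 in TRAIL dKO, and 4 and 2 in TNFR1 dKO. Over all probe sets 6.08% were called higher and 3.21% lower in Nemo KO, 4.91% and 2.64% in TRAIL dKO, and 5.83% and 3.35% in TNFR1 dKO. The counts of efflux, fasting and clock genes below are to be read against the same shares. The medians of the further lipogenic genes were -0.13, -0.08 and -0.03.

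Scd2, a desaturase that is scarce in adult hepatocytes, rose by 2.58 ± 0.30 in Nemo KO, 2.38 ± 0.34 in TRAIL dKO and 1.96 ± 0.30 in TNFR1 dKO (limma adjusted p = 0.00116, 0.00382 and 0.00403). Pparg, a nuclear receptor of fat storage, rose by 0.91, 0.98 and 0.80 (adjusted p = 0.0186, 0.0247 and 0.0323), calls that held in 7, 7 and 6 of 11 fits without 1 array. Mlxipl encodes ChREBP, the glucose-responsive partner of SREBP1c in lipogenesis, and had differences of -0.75 ± 0.14, -0.89 ± 0.15 and -0.65 ± 0.14, all called (adjusted p = 0.00898, 0.00836 and 0.0177). Dgat2, the last enzyme of triglyceride synthesis, had differences of -0.53 ± 0.09 and -0.47 ± 0.10, both called, and -0.32 ± 0.09 in TNFR1 dKO, not called (adjusted p = 0.00659, 0.021 and 0.0616). The other called genes of this list fall outside the naming rule. Tkfc, a triokinase of fructose metabolism, rose by 0.43 in Nemo KO and 0.51 in TNFR1 dKO (adjusted p = 0.018 and 0.00792). Fads2, a desaturase of polyunsaturated acids, rose by 0.39 in both TRAIL dKO and TNFR1 dKO (0.0307 and 0.0158), and Lpin1, a phosphatidate phosphatase, by 1.32 in TRAIL dKO (0.0267). In fits without 1 array these calls held in 7 and 11 of 11 for Tkfc, 6 and 9 for Fads2 and 7 for Lpin1. Where called, Mlxipl and Dgat2 had the sign of Thrsp and Srebf1, and Scd2, Pparg, Tkfc, Fads2 and Lpin1 that of Elovl6. Thrsp, Srebf1 and Elovl6 were themselves not called in the main fit. The macrophage, stellate cell and proliferation markers above also rose, and their part in the rise of Scd2 was not tested.

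Elovl3, an elongase of very long chains with a known daily and male-biased pattern, falls outside the naming rule and was chosen after its values were seen. It read 11.70, 10.94 and 11.02 in Nemo KO, 10.79 and 8.54 in TRAIL dKO and 9.21, 10.13 and 9.69 in TNFR1 dKO, against 12.23, 12.15 and 12.65 in WT. All Nemo-deficient arrays lay below WT. The difference was -1.12 ± 0.49 in Nemo KO (limma adjusted p = 0.195), -2.68 ± 0.55 in TRAIL dKO (0.0177) and -2.67 ± 0.49 in TNFR1 dKO (0.0093). The double knockouts did not pass against Nemo KO, at -1.55 ± 0.55 (adjusted p = 1) for TRAIL dKO and -1.54 ± 0.49 (0.573) for TNFR1 dKO.

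Among 6 measured genes of sterol efflux and LXR response, 1 was called higher and 1 lower in each Nemo-deficient genotype. Abcg1, a sterol exporter abundant in macrophages, read 8.78, 9.04 and 8.97 in Nemo KO, 8.78 and 8.84 in TRAIL dKO and 8.78, 9.04 and 8.97 in TNFR1 dKO, against 7.91, 7.96 and 7.78 in WT. It rose by 1.05 ± 0.09, 0.93 ± 0.10 and 1.04 ± 0.09 (limma adjusted p = 0.000437, 0.00142 and 0.000482), and so did the macrophage markers above, whose part was not tested. Abcg8, which secretes sterols into bile from hepatocytes, differed by -0.86 ± 0.14, -0.71 ± 0.16 and -0.57 ± 0.14, all called (0.00565, 0.0266 and 0.0372). The call of Abcg8 in TNFR1 dKO held in 4 of 11 fits without 1 array.

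Of 9 measured fasting genes 1 was called in each genotype. This was Pdk4, a brake on glucose oxidation, higher by 1.28 ± 0.20 in Nemo KO, 0.92 ± 0.23 in TRAIL dKO and 1.60 ± 0.20 in TNFR1 dKO (limma adjusted p = 0.00474, 0.0391 and 0.00172), and in TRAIL dKO the call held in 4 of 11 fits without 1 array. Of 11 measured clock genes 1 was called higher and 1 lower in each genotype. Per1 rose by 1.15, 1.04 and 1.05 (adjusted p = 0.0121, 0.0363 and 0.0188, calls held in 10, 5 and 7 of 11 fits without 1 array), and the clock repressor Cry1 had differences of -0.50, -0.76 and -0.78, all called (0.0432, 0.0132 and 0.00574). The Cry1 call in Nemo KO held in 4 of 11 fits without 1 array. Per1 answers to glucocorticoid as well as to the clock.

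**Figure D5:**
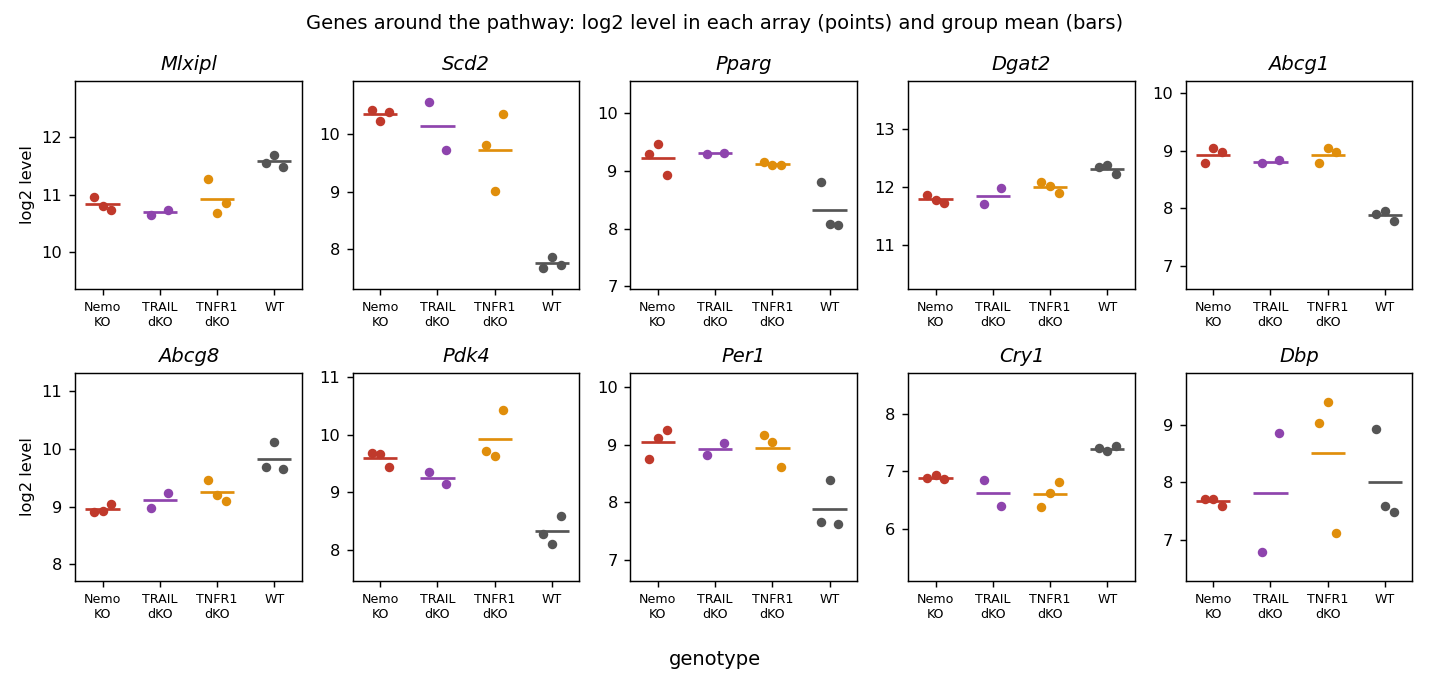
Log2 level of 10 genes around the pathways on each array (points) with the group mean (bars), for Nemo KO, TRAIL dKO, TNFR1 dKO and WT. Scd2, Pparg, Abcg1, Pdk4 and Per1 lie above WT and Mlxipl, Dgat2, Abcg8 and Cry1 below it on every Nemo-deficient array, while Dbp overlaps.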

How the data were processed

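Liver RNA of 11 mouse samples was measured on 1 array each. The deposited log2 expression values were made by the authors with RMA, per the submitters' processing notes (version not given in the sources used here). They were used without renormalizing. Samples were grouped by genotype from their titles. Of 35556 probe sets 21789 carried 1 gene symbol in the platform annotation, 1621 several and 12146 none.

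limma 3.58.1 in R 4.3.3 fitted group means over all arrays and probe sets together (7 residual and 2.51 prior degrees of freedom). Tests were two-sided, with Benjamini-Hochberg adjustment over all probe sets of a comparison and calls below 0.05. Precision is limited by the number of arrays. The fit was tested on simulated data. Members, lists and motifs were chosen with earlier results of these data known.

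Genes named with values per array are the regulators and, in each role group, the gene with the largest difference from WT in each genotype. Context genes are named where called in Nemo KO, up to 4 per list by size. Tkfc, Fads2, Lpin1, Elovl3, Dbp and Msmo1 fall outside this rule. The 22 alternatives were 11 settings and 11 fits without 1 array.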

Additional observations from a re-analysis of the deposited data

How the results depend on the processing

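Counts of called genes were compared over 11 other settings and 11 fits without 1 array. Against WT, the filter at the median level called 3 genes in Nemo KO, 3 in TRAIL dKO and 3 in TNFR1 dKO, and the restriction to single-symbol probe sets 4, 3 and 3. Both test fewer probe sets. Array weights called 1, 1 and 1, and the replicate block 1, 2 and 2 (Thrsp, then Stard4 and Thrsp in each double knockout), although same-numbered arrays did not deviate together (correlations -0.117 to 0.0435 over 15 pairs) and share only a number. The filter at the 25th percentile called 1 gene in TRAIL dKO and 1 in TNFR1 dKO. A fit of only the compared groups called 3 in Nemo KO. The variance trend, quantile normalization and median centring each called 1 in TNFR1 dKO. Without 1 array the counts ran from 0 to 2 in Nemo KO, 0 to 6 in TRAIL dKO and 0 to 3 in TNFR1 dKO. The 6 genes, found in TRAIL dKO without TNFR1 dKO replicate 2, were Elovl6, Idi1, Insig1, Mvd, Mvk and Thrsp. That array is in neither group of the comparison. Its removal left the differences as they were and changed only the estimate of spread shared by all groups. Why that array stood apart was not tested.

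An arm median counted as moved where it shifted by at least the pooled standard deviation of the arm mean within the compared groups. By this rule only medians of TRAIL dKO against Nemo KO moved. Without 1 array they ran from -0.178 to -0.0643 in the sterol arm and from -0.0744 to 0.111 in the lipogenic arm. Medians of TNFR1 dKO ran wider, as from -0.40 to -0.04 against WT in the sterol arm, but its arrays also spread more. Of 96 differences from WT (32 genes in 3 comparisons), 17 turned sign under at least 1 alternative, 5 in Nemo KO, 3 in TRAIL dKO and 9 in TNFR1 dKO. Among the genes given per array these were Insig2 and Srebf2. Insig2 in TRAIL dKO was -0.0179 under median centring and ran from -0.0742 to 0.0927 in fits without 1 array. Srebf2 ran from -0.117 to 0.0023 in Nemo KO, turned by WT replicate 1, and from -0.236 to 0.0332 in TNFR1 dKO, turned by its replicate 2. A fit without a TRAIL dKO array leaves 1, assumed to vary like the other groups. Median standard errors of 0.19 (Nemo KO against WT) and 0.21 (TRAIL dKO against WT) for these genes limit what 2 or 3 arrays can call.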
